A study of Mus musculus with 12 samples.

Results

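The comparison was the difference between genotypes in the ischemia response of the hippocampal CA1 subfield of mice. For each gene, the change from sham surgery to ischemia in wild-type (WT) animals was subtracted from the same change in SUMO-KD animals, and the result is called the interaction. Every gene that could be given 1 probe set entered, which made 12394 genes of 12394 in the series. Values are differences of log2(intensity + 32), so an interaction of 1 to either side is a 2-fold difference between genotypes in the ratio of ischemia to sham, apart from the added 32. The design asked whether the knockdown altered the transcriptional response to ischemia.

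The 12 arrays came from 4 groups of 3. They were WT sham, WT ischemia, SUMO-KD sham and SUMO-KD ischemia, and the array titles call the SUMO-KD animals transgenic. Ischemia was 10 minutes of global cerebral ischemia followed by 3 hours of reperfusion, and each sample pooled CA1 tissue of 2 mouse brains. Construct, promoter, number of lines, age and sex are not given in the sources used here, nor is the time at which sham tissue was taken.

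SUMO proteins are small modifiers that an enzyme cascade attaches to lysines of other proteins, among them many transcription factors, and conjugation rises steeply in brain after transient ischemia. CA1 pyramidal neurons die days after such an insult, and the hours before are marked by a wave of immediate early genes, heat shock proteins and activity-regulated genes. Immediate early factors such as Fos and Egr1 are transcribed without new protein synthesis and in turn act on other genes.

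The arrays were alike in scale, with median intensities from 141 to 162. Sumo3, a SUMO paralog whose knockdown checks the genotype labels, had a mean intensity of 2343 in WT sham and 1560 in SUMO-KD sham, and of 3400 and 1908 after ischemia. It was lower in SUMO-KD by limma in both surgeries, with adjusted p = 0.0096 in sham and 0.0015 after ischemia, and its interaction was -0.24 (SE 0.14, adjusted p = 0.866). SUMO-KD ischemia replicate 2 stood apart from the other 5 ischemia arrays in a 3′ control for 18S ribosomal RNA, at 6316 against 2829 to 4127, and in the summed intensity of 17 blood and leukocyte markers, at 2201 against 765 to 1091. Sham arrays ran from 5087 to 7569 in the 3′ control. A 5′ control ran from 4194 to 6528 in sham and from 1275 to 1660 in the other 5 ischemia arrays. It was 4127 in SUMO-KD ischemia replicate 2. In both controls this array thus lay near the sham arrays, and the other ischemia arrays lay below them. The cause was not tested. Results are also given without SUMO-KD ischemia replicate 2.

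The interaction passed the test at 2 genes, both with a lower response in SUMO-KD than in WT. By limma with Benjamini-Hochberg adjustment, ischemia changed 2289 genes in WT (18.5%), 1327 in SUMO-KD (10.7%) and 3314 in the mean of both genotypes (26.7%). The interaction was called at adjusted p under 0.05 for 2 of 12394 genes (0.0161%), Sox11 and Neurod1. At an unadjusted p under 0.05 it was negative at 424 genes (3.42%) and positive at 344 (2.78%), together 6.2% of genes, where 5% pass such a threshold without any effect. The median SE of an interaction was 0.19, so that the 95% interval of a typical gene spanned 0.41 to each side. An absolute interaction of 1 or more was seen at 43 genes, negative at 34 and positive at 9.

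Sox11, a transcription factor of immature neurons that is re-expressed after neuronal injury, had the lowest p. Its intensities were 181, 230 and 209 in WT sham and 845, 529 and 768 in WT ischemia. In SUMO-KD they were 667, 570 and 715 in sham and 414, 524 and 501 after ischemia. All SUMO-KD sham arrays lay above all WT sham arrays, while after ischemia the order was turned, with 524 in the highest SUMO-KD array and 529 in the lowest WT array. Sox11 rose by 1.62 in WT (adjusted p = 7.2e-05), while SUMO-KD had a difference of -0.42 that did not pass (adjusted p = 0.142). The interaction was -2.04 (SE 0.23, 95% interval -2.55 to -1.53, limma adjusted p = 0.0219), and the genotypes differed by 1.51 in sham (adjusted p = 0.00069) and by -0.53 after ischemia (adjusted p = 0.154).

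Neurod1, a basic helix-loop-helix factor of neuronal differentiation that granule neurons of the dentate gyrus also express, changed in opposite directions. It measured 992, 925 and 1071 in WT sham and 1325, 1356 and 1534 in WT ischemia. In SUMO-KD it measured 1645, 1368 and 1697 in sham and 894, 708 and 870 after ischemia. No group overlapped the other genotype's group of the same surgery: SUMO-KD was higher in sham and lower after ischemia. Neurod1 rose by 0.48 in WT (adjusted p = 0.0155) and fell by 0.91 in SUMO-KD (adjusted p = 0.00058). The interaction was -1.39 (SE 0.17, 95% interval -1.75 to -1.02, limma adjusted p = 0.0219). A second Neurod1 probe set had an interaction of -0.93 (unadjusted p = 0.00061), whereas Sox11 had only 1 probe set.

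Both calls sat close to the threshold. Without any one of 9 arrays, SUMO-KD ischemia replicate 2 among them, 0 genes were called. These 9 were all arrays of WT sham and of SUMO-KD ischemia, WT ischemia replicate 3, and SUMO-KD sham replicates 1 and 3. Without SUMO-KD ischemia replicate 2, the interactions were -2.10 for Sox11 and -1.29 for Neurod1, each with adjusted p = 0.0521. Over all 12 omissions the interaction ranged from -2.23 to -1.91 for Sox11 and from -1.48 to -1.29 for Neurod1. Without WT ischemia replicate 2, 5 genes were called, with Acan, Inhba and Nptx2 added, and Sox11 had an adjusted p of 0.00202. Without WT ischemia replicate 1, Rrad was added, and without SUMO-KD sham replicate 2, Pcdhb22.

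The 120 bases before the RefSeq start of the called genes are printed here as the regulatory sequence nearest to them, from GRCm38.p6. Sox11 lies at chr12:27342719-27342838 and Neurod1 at chr2:79456637-79456756, both on the minus strand, and both are written 5′ to 3′ in the direction of transcription. Capitals mark CCAAT and TATAA, searched on both strands.
Sox11: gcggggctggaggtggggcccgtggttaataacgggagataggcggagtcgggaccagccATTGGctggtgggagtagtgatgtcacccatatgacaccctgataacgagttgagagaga
Neurod1: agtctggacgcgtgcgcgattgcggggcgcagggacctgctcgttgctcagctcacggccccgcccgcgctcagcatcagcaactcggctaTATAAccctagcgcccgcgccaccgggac
The Sox11 match to CCAAT, on the opposite strand, began 60 bases before the start, and the Neurod1 match to TATAA began 29 bases before it. In the 250 bases before their starts, CCAAT occurred in 33.8% and TATAA in 22.8% of all 32851 RefSeq promoters, and in 34.7% and 16% of those of measured genes. Neither gene held the AP-1 motif, TGANTCA, in that window, which 6.75% of all promoters held.

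**Figure D1:**
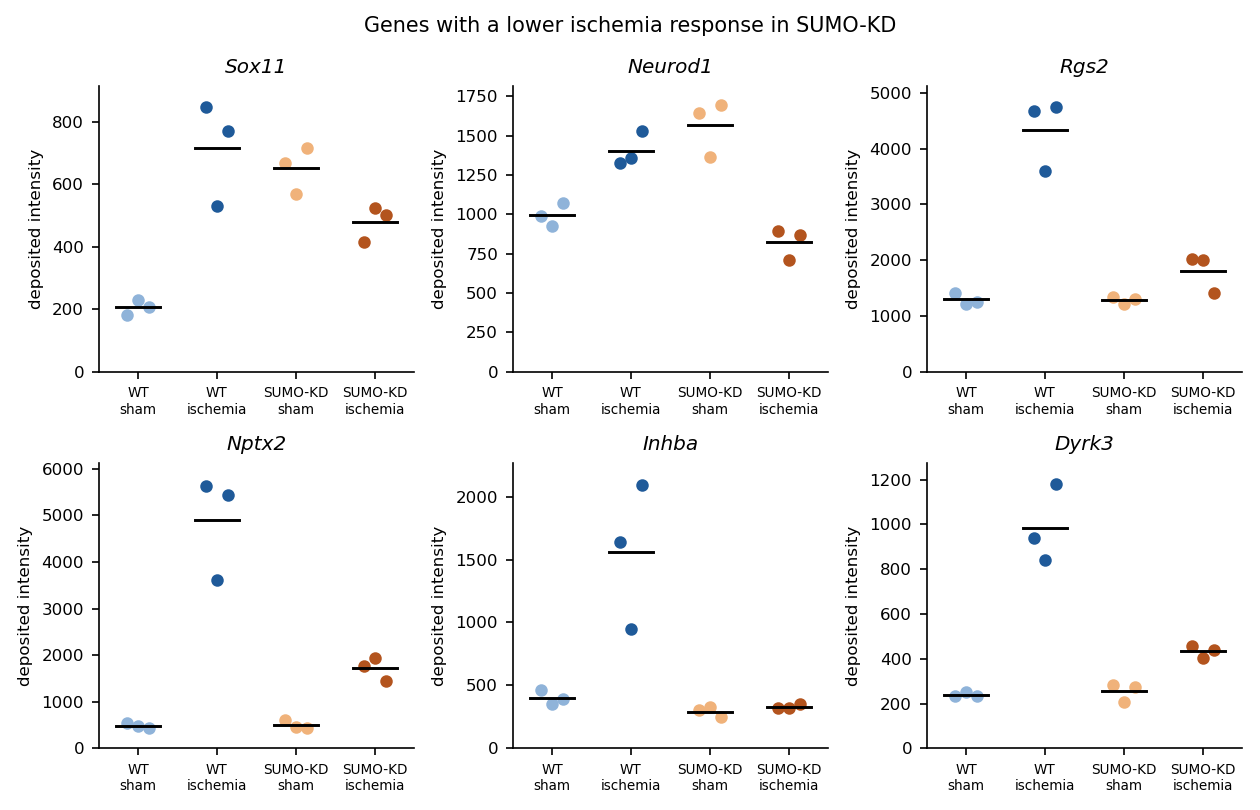
Deposited intensity (linear axis from 0) of 6 genes in each of the 12 arrays, by group; points are arrays and bars are group means of 3. Sox11 and Neurod1 were higher in SUMO-KD than in WT after sham surgery and lower after ischemia, while Rgs2, Nptx2, Inhba and Dyrk3 differed between genotypes mainly after ischemia.

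The genes next in order took 2 forms. Rrad, Dyrk3, Pim1, Rgs2, Nptx2, Etv3 and Xirp1 had similar levels in both sham groups and a smaller change in SUMO-KD, while Camk2d, Pcdhb22 and Parp12 were higher in SUMO-KD sham. None was called, and their interactions are given as values. Ordered by limma's moderated statistic, which divides the interaction by its error, the 12 lowest among genes with a group mean of at least 100 were Sox11, Neurod1, Rrad, Dyrk3, Camk2d, Pim1, Rgs2, Nptx2, Etv3, Pcdhb22, Xirp1 and Parp12. The last 10 had adjusted p from 0.145 to 0.229 by limma. The 12 were chosen by the interaction on these same arrays, so their separation is no further support for it. In each of the 12, all 9 differences between an ischemia and a sham array were lower in SUMO-KD than all 9 in WT. That held for 171 of all 12394 genes (1.38%), and the reverse for 180 (1.45%).

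Rgs2, a regulator that shortens G protein signaling, measured 1417, 1214 and 1258 in WT sham and 4682, 3591 and 4749 in WT ischemia. In SUMO-KD it measured 1342, 1221 and 1313 in sham and 2019, 2000 and 1416 after ischemia. The sham groups overlapped, and every SUMO-KD ischemia array lay below every WT ischemia array. The rise of 1.71 in WT passed the test (adjusted p = 2.5e-05), and the change of 0.46 in SUMO-KD did not (adjusted p = 0.073). The interaction was -1.25 (SE 0.21, adjusted p = 0.145), and a second probe set gave -1.08.

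Nptx2, a secreted pentraxin that clusters AMPA receptors, rose in both genotypes. Its intensities were 539, 483 and 430 in WT sham and 606, 454 and 436 in SUMO-KD sham. They were 5640, 3609 and 5442 in WT ischemia and 1774, 1948 and 1451 in SUMO-KD ischemia. Sham arrays overlapped, and after ischemia every SUMO-KD array lay below every WT array. The rises were 3.23 in WT and 1.73 in SUMO-KD, with an interaction of -1.50 (SE 0.26, adjusted p = 0.175). A dimmer second probe set gave -0.53 (unadjusted p = 0.135).

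Inhba encodes the subunit of activin A, a growth factor with neuroprotective actions in hippocampus. It measured 460, 354 and 395 in WT sham and 302, 325 and 247 in SUMO-KD sham. After ischemia it measured 1641, 945 and 2092 in WT and 322, 319 and 349 in SUMO-KD. The WT ischemia arrays were spread widely, yet all lay above the other 9. The rise was 1.81 in WT (adjusted p = 0.0003), SUMO-KD had a difference of 0.17 (adjusted p = 0.717), and the interaction was -1.64 (SE 0.32, adjusted p = 0.229).

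Dyrk3 and Pim1 encode kinases, and Etv3 a transcriptional repressor. Dyrk3 measured 938, 840 and 1179 in WT ischemia against 457, 403 and 441 in SUMO-KD ischemia, with sham arrays from 205 to 284 in both genotypes. Its interaction was -1.18 (SE 0.19, adjusted p = 0.145). Pim1 measured 475, 661 and 583 in WT ischemia and 193, 115 and 177 in SUMO-KD ischemia, and its interaction was -1.47 by the probe set used and -1.19 by another. Etv3 had means of 1818 in WT ischemia and 1063 in SUMO-KD ischemia, an interaction of -0.92, and -0.77 at a second probe set. Both kinases and Etv3 rose in each genotype, with a largest adjusted p of 0.0067, and their ischemia groups did not overlap between genotypes.

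Ptgs2 encodes cyclooxygenase-2, the inducible enzyme of prostaglandin synthesis in ischemic neurons. It measured 6710, 5269 and 8757 in WT ischemia and 1630, 3091 and 1629 in SUMO-KD ischemia, from sham means of 875 and 581. It rose by 2.91 in WT and by 1.77 in SUMO-KD (adjusted p = 0.0015), and the interaction was -1.13 (SE 0.38, adjusted p = 0.718). SUMO-KD ischemia replicate 2 was the highest of its group. Rrad, a small GTPase that inhibits calcium channels, measured 294, 362 and 472 in WT ischemia and 175, 187 and 223 in SUMO-KD ischemia, from 7.9 to 37.7 in all sham arrays. Its interaction was -1.36 (SE 0.21, adjusted p = 0.145).

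Camk2d, Pcdhb22 and Parp12 had another form, closer to that of Sox11. They encode a subunit of calcium/calmodulin kinase II, a protocadherin and an interferon-induced ADP-ribosyltransferase. Camk2d measured 109, 135 and 157 in WT sham and 265, 258 and 293 in SUMO-KD sham, and ranged from 178 to 229 in all ischemia arrays. It rose by 0.60 in WT (adjusted p = 0.0051) and fell by 0.41 in SUMO-KD (adjusted p = 0.047), and its interaction was -1.01 (SE 0.17, adjusted p = 0.145). A dim second probe set gave -0.11. Pcdhb22 was higher in SUMO-KD in both surgeries, with means of 438 and 263 against 47.8 and 74.1 in WT, and had an interaction of -1.06 (adjusted p = 0.204). Parp12 had means of 186 in WT sham and 373 in SUMO-KD sham, and an interaction of -0.67 (adjusted p = 0.229).

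**Figure D2:**
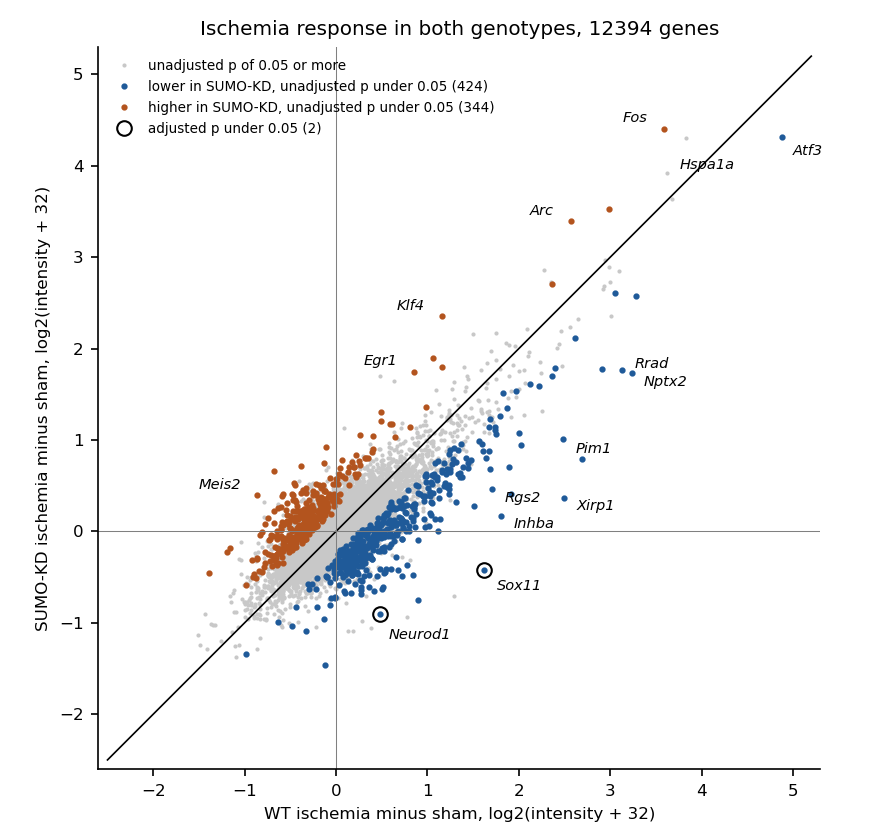
Ischemia response in SUMO-KD (vertical axis) against that in WT (horizontal axis), each as the difference of group means of log2(intensity + 32), for 12394 genes; the diagonal marks equal responses. The 424 genes with a negative and the 344 with a positive interaction at unadjusted p under 0.05 lie on either side of the diagonal, and the 2 circled genes, Sox11 and Neurod1, were called.

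Across genes, the responses of the genotypes, which share no array, had Pearson's r = 0.78 and Spearman's rho = 0.64 over 12394 genes. Of 1582 genes that rose in the mean of both genotypes, 1063 (67.2%) had the smaller rise in SUMO-KD, and of 1732 that fell, 1159 (66.9%) had the smaller fall. Over all 3314, the mean change in the direction of the mean response was 0.56 in WT and 0.46 in SUMO-KD, a ratio of 0.83. An exact two-sided test, which exchanged WT and SUMO-KD labels among sham and among ischemia arrays in 400 ways, gave p = 0.17, and the smallest p it can give is 0.005. By the same exact test the ratio did not pass for the rises alone (0.83, p = 0.12) or for the falls alone (0.84, p = 0.265). It was 0.80 (exact p = 0.12) without SUMO-KD ischemia replicate 2 and 0.91 (exact p = 0.41) without SUMO-KD ischemia replicate 1.

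The 10 largest mean rises were Atf3, Ccn1, Fos, Hspa1a, Egr2, Hspb1, Arc, Tnfrsf12a, Maff and Ier2, and no interaction among them passed. Fos, a subunit of AP-1, measured 9483, 9796 and 6141 in WT ischemia and 10656, 6067 and 9142 in SUMO-KD ischemia, with an interaction of 0.82 (SE 0.34, adjusted p = 0.796). The ischemia arrays overlapped, and the SUMO-KD sham arrays, at 399, 448 and 271, lay below the WT sham arrays, at 656, 732 and 599. Hspa1a, the inducible heat shock protein 70, rose by 3.63 in WT and by 3.92 in SUMO-KD, and its interaction of 0.29 had a 95% interval from -0.22 to 0.81. Atf3, a stress-induced repressor of the ATF/CREB family, measured 2515, 2511 and 2271 in WT ischemia and 1681, 1248 and 1559 in SUMO-KD ischemia, with an interaction of -0.56 (adjusted p = 0.799). Among the 5 largest mean falls, Fzd2, Rnpc3, Slco1a4, Crebzf and Lct, interactions ran from -0.29 to 0.37. The strongest responders thus included genes on both sides of equal response.

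A negative interaction arises from unlike patterns, and the 424 genes fell into 3. In 185 of them the change was positive in both genotypes and smaller in SUMO-KD, in 209 it was positive in WT and negative in SUMO-KD, and in 30 it was negative in both and larger in SUMO-KD. The genotypes lay further apart after ischemia in 232 of the 424 and further apart after sham surgery in 192. Among the 344 genes with a positive interaction, 166 had the larger gap after ischemia and 178 after sham surgery. By limma, SUMO-KD and WT differed at 260 genes in sham (2.1%) and at 193 after ischemia (1.56%). Of the 424, 73 were among the genes called in sham and 59 among those called after ischemia, and of the 344 these were 36 and 31. These counts share arrays with the interaction and describe where it came from.

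Egr1, an immediate early zinc finger factor that marks recent neuronal activity, illustrates a gap in sham. It measured 7519, 5705 and 5497 in WT sham and 3748, 3753 and 2753 in SUMO-KD sham. After ischemia it measured 10933, 11884 and 10662 in WT and 11273, 10876 and 12231 in SUMO-KD. The sham groups did not overlap and the ischemia groups did. Egr1 rose by 0.85 in WT and by 1.75 in SUMO-KD, from a lower start, and the interaction was 0.90 (SE 0.20, adjusted p = 0.425). The genotypes differed by -0.86 in sham (adjusted p = 0.0099) and by 0.04 after ischemia (adjusted p = 0.936).

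Arc, a synaptic protein that drives AMPA receptor endocytosis, and Nr4a1, an orphan nuclear receptor, behaved alike in sham. Arc measured 1280, 1118 and 838 in WT sham and 424, 439 and 302 in SUMO-KD sham. After ischemia it measured 6229, 6012 and 7270 in WT and 3831, 4898 and 4363 in SUMO-KD. SUMO-KD lay below WT in both surgeries, and on the log2 scale further below in sham (-1.40 against -0.57), which gave an interaction of 0.82 (SE 0.25, adjusted p = 0.65). Nr4a1 measured 1536, 1458 and 1002 in WT sham and 531, 587 and 511 in SUMO-KD sham, overlapped after ischemia, and had an interaction of 0.84 (SE 0.30, adjusted p = 0.765). Spry1, a Sprouty inhibitor of receptor tyrosine kinase signaling, measured 355, 395 and 384 in WT ischemia and 483, 462 and 554 in SUMO-KD ischemia, and its interaction was 0.72 (SE 0.16, adjusted p = 0.425). Klf4, a Kruppel-like factor, had its gap after ischemia instead, at 504, 569 and 352 in WT and 1810, 736 and 923 in SUMO-KD, with overlapping sham arrays and an interaction of 1.19 (SE 0.39, adjusted p = 0.718).

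**Figure D3:**
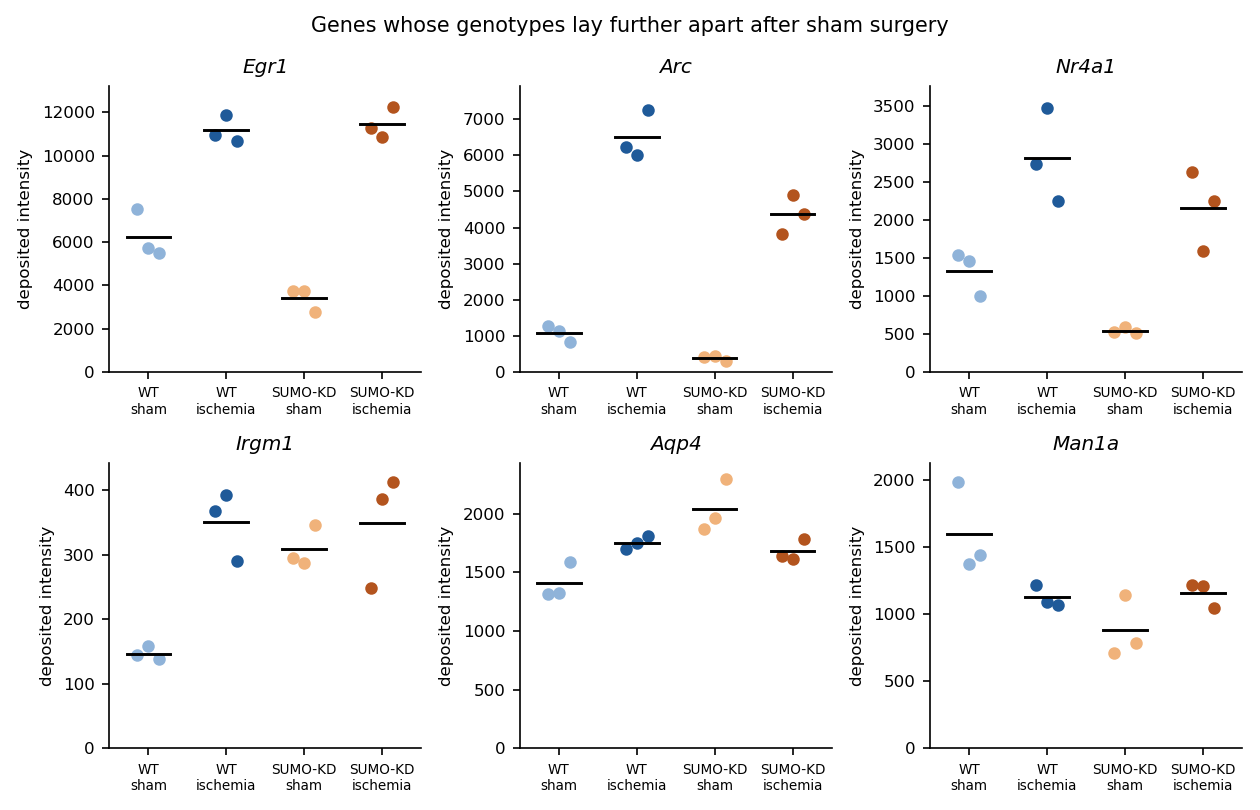
Deposited intensity (linear axis from 0) of 6 genes in each array, by group; points are arrays and bars are group means of 3. As differences of log2(intensity + 32), the genotypes lay further apart after sham surgery than after ischemia in all 6, although the gap of Arc in intensity was larger after ischemia, with means of 6504 and 4364 against 1079 and 388 in sham. The panels show Egr1, Arc, Nr4a1 and Man1a lower and Irgm1 and Aqp4 higher in SUMO-KD sham.

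The 12 genes with the highest moderated statistic were Msra, Egr1, Spry1, Septin9, Elovl6, Depdc7, Lamp5, Gpr137b-ps, Crtc3, Meis2, Rab3c and Man1a, with interactions from 0.45 to 1.26 and adjusted p from 0.425 to 0.567. Some interactions of larger size, such as that of Klf4, had a larger error and stand outside this order. Msra, which reduces oxidized methionine, measured 1230, 1187 and 1168 in WT sham and 809, 878 and 737 in SUMO-KD sham, and from 793 to 959 in all ischemia arrays. It fell by 0.52 in WT (adjusted p = 0.003), against a difference of 0.08 in SUMO-KD, which gave an interaction of 0.60 (SE 0.13). Lamp5, Depdc7 and Rab3c had the same order of groups, with a decrease in WT (adjusted p from 0.0011 to 0.039) toward the SUMO-KD sham level. Man1a, a mannosidase enriched in CA1, is described with the CA1 markers. Crtc3, a coactivator of CREB, rose by 0.35 in WT and by 0.81 in SUMO-KD, with an interaction of 0.46 (SE 0.13, adjusted p = 0.567).

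The responses were then read by gene list, 38 in all, against a median interaction of 0.01 over all genes. Activity-regulated effectors, which act downstream of calcium and CREB signaling in neurons, had a median interaction of -0.24 over 30 measured members, with median responses of 1.67 in WT and 1.35 in SUMO-KD. Ischemia raised 28 of the 30 in WT and 25 in SUMO-KD by limma, where 9.59% of all genes rose in WT and 6.08% in SUMO-KD. The interaction was negative at unadjusted p under 0.05 in 12 of 30 and positive in 1, Arc, against 3.42% and 2.78% of all genes, and none was called. The members of smallest p, Rrad, Pim1 and Rgs2, are described above. Without SUMO-KD ischemia replicate 2 these counts were 11 and 2, and over all omissions of an array the first ranged from 9 to 14.

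The 28 immediate early transcription factors gave no such lean. Their median interaction was 0.03, with median responses of 1.49 in WT and 1.56 in SUMO-KD. The interaction was negative at unadjusted p under 0.05 in 4 and positive in 6, beside 3.42% and 2.78% of all genes. Over the omissions of an array these counts ranged from 1 to 4 and from 3 to 6. Egr1, Klf4 and Nr4a1 had the smallest p. By limma, 22 rose in WT and 23 in SUMO-KD, beside 9.59% and 6.08% of all genes. The median turned to -0.02 with quantile normalization, so no direction is read from it.

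**Figure D4:**
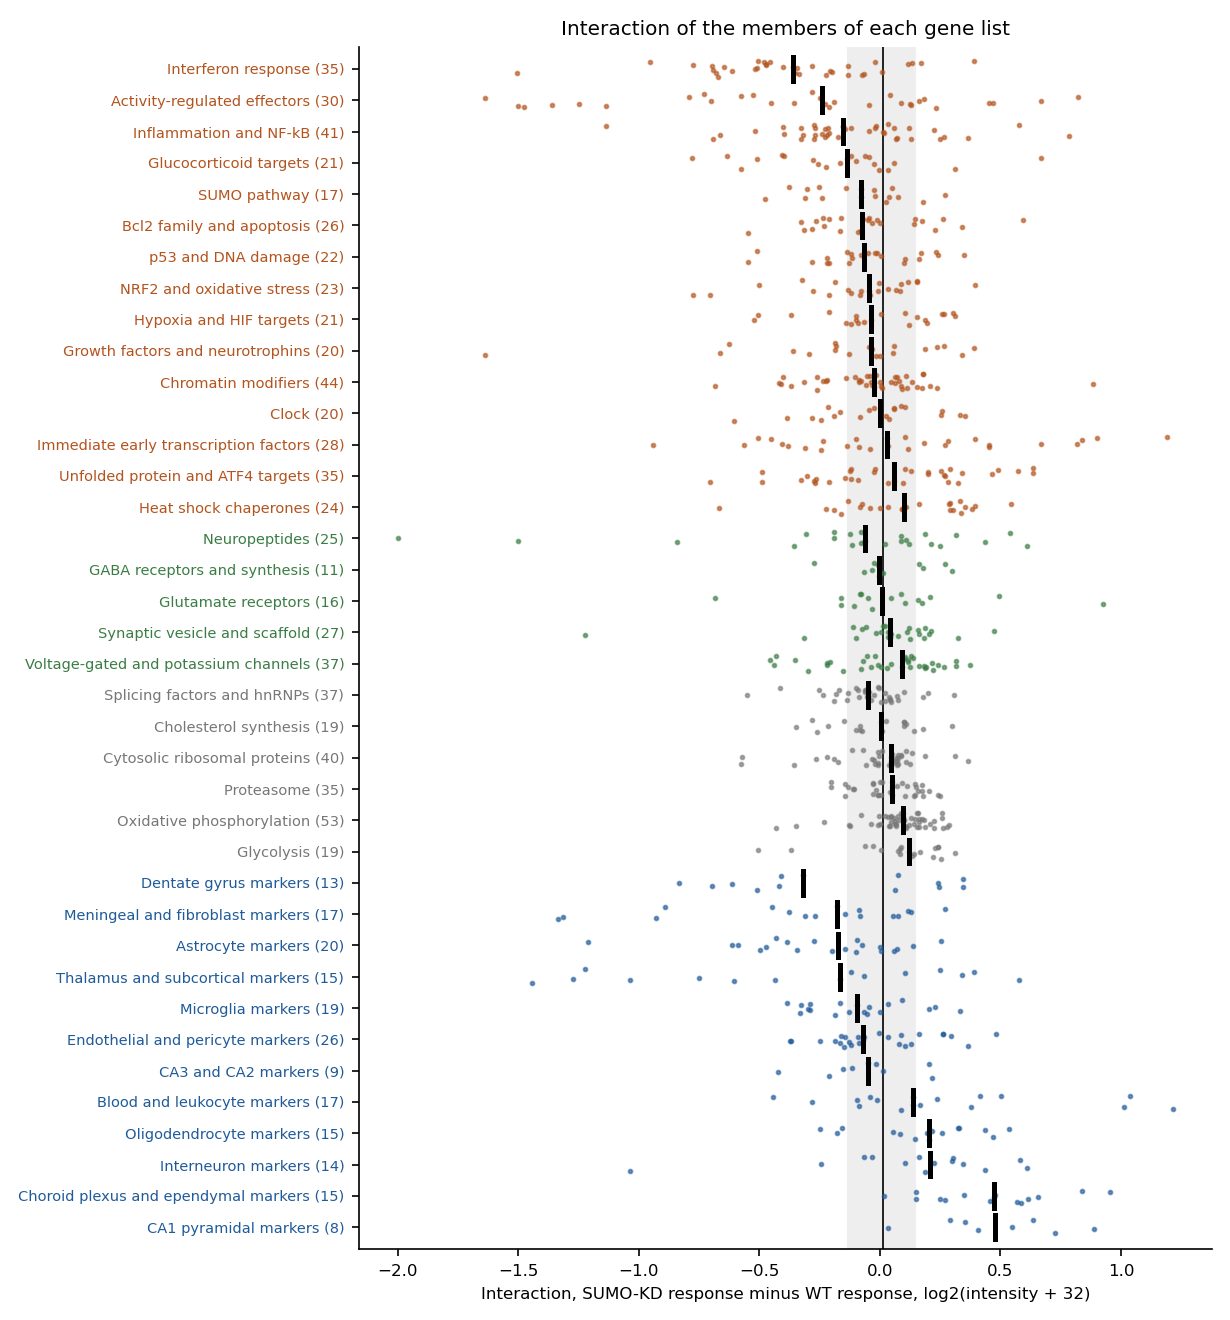
Interaction of each measured member (points) and its median (black bars) for 38 gene lists, on the log2(intensity + 32) scale, with the number of measured members in brackets; orange marks response lists, green neuronal, grey housekeeping and blue cell type lists. The vertical line is the median of all genes and the grey band their interquartile range. Interferon response genes and activity-regulated effectors lie furthest to the left among response lists, CA1 and choroid plexus markers furthest to the right.

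Interferon response genes, which interferons induce through STAT factors in most brain cells, had a median interaction of -0.36 over 35 measured members. It was the lowest of the 38 lists here and in 17 of 24 other settings, counting each omission of an array as one. Among the 17 are settings that could not change this median: a variance model with a trend, the replicate block, and every probe set by itself. Dentate gyrus markers were lowest in 6 settings, with an offset of 64 and on omitting replicate 3 of WT sham, 1 of WT ischemia, 2 of SUMO-KD sham, or 1 or 3 of SUMO-KD ischemia. Thalamic markers were lowest in 1, a setting meant to average probe sets. Its values were wrongly scaled for some genes, so its order of lists is not that of means. The interaction was negative in 30 of the 35 interferon response genes, against 47.8% of all genes. At unadjusted p under 0.05 it was negative in 7 and positive in 0, beside 3.42% and 2.78% of all genes, with 0 called. The median response was 0.46 in WT and 0.09 in SUMO-KD, and by limma 18 members rose in WT and 1 in SUMO-KD, beside 9.59% and 6.08% of all genes. Over the omissions of an array the median ranged from -0.43 to -0.26 and the count of 7 from 4, without SUMO-KD ischemia replicate 1, to 14, without SUMO-KD sham replicate 1. It was 12 without WT ischemia replicate 3 and 7 without SUMO-KD ischemia replicate 2.

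Irgm1, an immunity-related GTPase, measured 144, 158 and 138 in WT sham and 296, 287 and 346 in SUMO-KD sham. After ischemia it measured 368, 393 and 291 in WT and 249, 387 and 413 in SUMO-KD. SUMO-KD sham arrays thus lay at the level of the ischemia arrays of both genotypes. The rise of 1.09 in WT passed the test (adjusted p = 0.0011), the change of 0.14 in SUMO-KD did not (adjusted p = 0.7), and the interaction was -0.95 (SE 0.23, adjusted p = 0.43).

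Gbp3, a guanylate-binding protein, differed after ischemia instead, at 285, 279 and 345 in WT and 77.7, 157 and 177 in SUMO-KD, with overlapping sham arrays. Its interaction was -1.50 (SE 0.38, adjusted p = 0.45). Igtp, another immunity-related GTPase, measured 174, 165 and 191 in WT sham and 207, 222 and 252 in SUMO-KD sham, and its ischemia arrays overlapped at 218 to 294. Its interaction was -0.52 (SE 0.14, adjusted p = 0.567). The 3 genes thus differed in form, with Irgm1 and Igtp higher in SUMO-KD sham and Gbp3 lower in SUMO-KD ischemia.

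The promoters of these 3 genes are shown because they share a sequence that interferon regulatory factors are known to bind, here in the shortened form GAAANNGAA. Each is the 100 bases before a RefSeq start of GRCm38.p6, at chr11:48871421-48871520 on the minus strand for Irgm1, chr3:142559944-142560043 on the plus strand for Gbp3 (the first of its starts), and chr11:58199456-58199555 on the plus strand for Igtp. Capitals mark the motif on either strand.
Irgm1: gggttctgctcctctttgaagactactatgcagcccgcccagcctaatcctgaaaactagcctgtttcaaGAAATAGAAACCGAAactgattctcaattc
Gbp3: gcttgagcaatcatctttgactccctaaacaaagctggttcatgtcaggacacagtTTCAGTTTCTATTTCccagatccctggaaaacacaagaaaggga
Igtp: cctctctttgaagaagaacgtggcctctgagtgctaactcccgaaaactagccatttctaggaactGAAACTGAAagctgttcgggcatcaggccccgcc
The matches of Irgm1 began 30 and 24 bases before the start and overlapped each other, as did those of Gbp3, at 44 and 38 bases, and the match of Igtp began at 34 bases. In the 250 bases before their starts, 14 of the 28 list members with a RefSeq promoter held the motif at any of their starts. It was held by 7.55% of the 9888 measured genes with a promoter, counted in the same way, and by 7.13% of all 32851 promoters. A match describes letters and not binding.

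The same search was made for TGACG, the core of the cyclic AMP response element that CREB binds, because activity-regulated genes often hold it. At any of their starts it occurred in 10 of 23 activity-regulated effectors with a promoter, and in 27% of the 9888 measured genes. It occurred in 2 of the 8 genes with a promoter among the 12 of lowest statistic, Rgs2 and Etv3, a share near that of the measured genes. The share was 17.8% over all promoters and 23.2% over promoters of measured genes. The full TGACGTCA occurred in 3 of the 23 and in none of those 8, against 2.53% of measured genes and 1.55% of all promoters. The 200 bases before the Rgs2 start, chr1:144004150-144004349 of GRCm38.p6 on the minus strand, hold it at 185 and 67 bases before the start, with matches in capitals.
Rgs2: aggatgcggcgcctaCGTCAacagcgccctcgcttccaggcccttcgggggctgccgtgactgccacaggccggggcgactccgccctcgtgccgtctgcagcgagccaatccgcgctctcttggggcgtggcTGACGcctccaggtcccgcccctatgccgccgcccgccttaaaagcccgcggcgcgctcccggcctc

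Heat shock chaperones, which bind unfolded proteins under control of Hsf1, had a median interaction of 0.10 over 24 members. By limma 14 rose in WT and 16 in SUMO-KD, beside 9.59% and 6.08% of all genes. At unadjusted p under 0.05 the interaction was negative in 1 and positive in 2, beside 3.42% and 2.78% of all genes. The count of 2 positive ranged from 0, on omitting replicate 1 or 2 of WT sham, 3 of SUMO-KD sham or 2 of SUMO-KD ischemia, to 5, without SUMO-KD sham replicate 2. The negative member was Bag3, a cochaperone of Hsp70, at 1362, 1023 and 1460 in WT ischemia and 866, 801 and 766 in SUMO-KD ischemia, with an interaction of -0.67 (SE 0.19, adjusted p = 0.567). The positive members were Hspb1 (0.54) and Dnajb1 (0.34), both of which rose in each genotype. Unfolded protein and ATF4 targets had a median of 0.06 over 35 members. At unadjusted p under 0.05, 2 were negative and 5 positive, beside 3.42% and 2.78% of all genes. The count of 5 fell to 1 on omitting replicate 1 of WT sham, 1 of WT ischemia or 3 of SUMO-KD ischemia, and to 2 on omitting replicate 1 of SUMO-KD sham or 2 of SUMO-KD ischemia. It was 8 without SUMO-KD ischemia replicate 1. The count of 2 negative ranged from 1 to 4. Among them Dnajb11 and Pdia6, chaperones of the endoplasmic reticulum, had interactions of 0.57 and 0.63, and Vldlr, a lipoprotein receptor, had -0.49.

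Inflammation and NF-kB genes had a median of -0.15 over 41 members. At unadjusted p under 0.05, 2 were negative and 0 positive, beside 3.42% and 2.78% of all genes. The 2 were Ptgs2 and the chemokine Ccl3 (-0.52). The first count was 5 without SUMO-KD ischemia replicate 2. By limma 23 rose in WT and 22 in SUMO-KD, beside 9.59% and 6.08% of all genes. Glucocorticoid targets had a median of -0.14 over 21 members. At unadjusted p under 0.05, 3 were negative and 0 positive, beside 3.42% and 2.78% of all genes. Their median turned to 0.01 without SUMO-KD sham replicate 3 and was -0.28, with 6 negative, without SUMO-KD sham replicate 1. Cebpd, an acute phase transcription factor, measured 632, 734 and 661 in WT sham, 933, 804 and 988 in SUMO-KD sham, 2164, 2087 and 2048 in WT ischemia and 1538, 1888 and 1971 in SUMO-KD ischemia, with an interaction of -0.63 (SE 0.16, adjusted p = 0.43). Fkbp5, a glucocorticoid receptor cochaperone, was higher in SUMO-KD in both surgeries, with means of 2043 and 1558 against 994 and 1006 in WT, and its interaction was -0.40. The 20 growth factors and neurotrophins had a median of -0.04, with 3 negative at unadjusted p under 0.05, beside 3.42% of all genes. The 3 were Inhba, Hbegf (-0.63) and Bmp2 (-0.66).

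The remaining response lists stayed near the median of all genes. Medians were -0.06 for 22 p53 and DNA damage genes, -0.04 for 23 NRF2 and oxidative stress genes, -0.04 for 21 hypoxia and HIF targets, 0.00 for 20 clock genes and -0.07 for 26 Bcl2 family and apoptosis genes. The p53 and clock lists had 0 members with an interaction at unadjusted p under 0.05 in either direction, beside 6.2% of all genes. The 17 measured SUMO pathway genes had a median of -0.08, with 1 negative at unadjusted p under 0.05, beside 3.42% of all genes. The 1 member was Rwdd3, an enhancer of SUMO conjugation. Its interaction was -0.47 (adjusted p = 0.43), and it was 0.01 with the probe sets marked as shared left out. Chromatin modifiers had a median of -0.02 over 44 members, and Ezh2, the histone H3 lysine methyltransferase of Polycomb, had -0.68 (adjusted p = 0.718).

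Housekeeping and synaptic lists spread little. Medians were 0.10 for 53 oxidative phosphorylation genes, 0.12 for 19 glycolysis genes, 0.05 for 40 cytosolic ribosomal protein genes, 0.05 for 35 proteasome genes, 0.01 for 19 cholesterol synthesis genes and -0.05 for 37 splicing factors. The interaction was positive in 44 of the 53 oxidative phosphorylation genes, beside 6475 of all 12394 genes. At unadjusted p under 0.05 it was negative in 1 and positive in 0, beside 3.42% and 2.78% of all genes. Members of a list share the same arrays, so such counts are not independent measurements. Glutamate receptors (0.01), GABA receptors (0.00), voltage-gated and potassium channels (0.09), and synaptic vesicle and scaffold genes (0.04) lay near 0. Neuropeptides had a median of -0.06 and included Nptx2, Pcsk1 (-0.84), a prohormone convertase, and Sst (0.61), an interneuron peptide that measured 3534, 2780 and 3012 in SUMO-KD ischemia and 2203, 2132 and 1914 in WT ischemia.

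Region and cell type markers moved with genotype and surgery as well. The summed intensity of 8 CA1 pyramidal markers ran from 15052 to 18992 in WT sham, from 8971 to 12644 in WT ischemia, from 7668 to 11100 in SUMO-KD sham and from 8126 to 11400 in SUMO-KD ischemia. All SUMO-KD sham arrays lay below all WT sham arrays. The interaction was positive in 8 of the 8, beside 6475 of all 12394 genes. Its median was 0.48. At unadjusted p under 0.05 it was positive in 2 (1 to 4 over the omissions of an array), beside 2.78% of all genes. Wfs1, a marker of CA1 pyramidal cells, measured 2708, 2126 and 1922 in WT sham and 1343, 1225 and 1058 in SUMO-KD sham, and its interaction was 0.55 (SE 0.22, adjusted p = 0.796). Man1a measured 1986, 1376 and 1444 in WT sham and 713, 1146 and 787 in SUMO-KD sham, with an interaction of 0.89 at the probe set used and 0.69 at another. In such bulk samples, fewer cells of a type and less RNA per cell cannot be told apart.

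The sum of 13 dentate gyrus markers ran from 11505 to 14524 in WT sham, 8675 to 10227 in WT ischemia, 14174 to 17359 in SUMO-KD sham and 11188 to 12433 in SUMO-KD ischemia. It was thus higher in SUMO-KD in both surgeries, and its log2 fell from sham to ischemia by 0.42 in WT and by 0.45 in SUMO-KD. The median interaction of the members was -0.32. The interaction was negative at unadjusted p under 0.05 in 4 (2 to 5 over the omissions), beside 3.42% of all genes. Among the 4 were Stxbp6 (-0.70), Prox1 (-0.83) and Sema5a (-0.41). The defining markers Prox1 and Wfs1 were above 0 in every group, and the dentate member with a mean below 32 was Glp1r. Neurod1 and Sox11 were no members of this list, and the part of tissue makeup in their interactions was not tested. The same holds for the genes with a gap in sham, such as Egr1, Arc and Nr4a1.

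**Figure D5:**
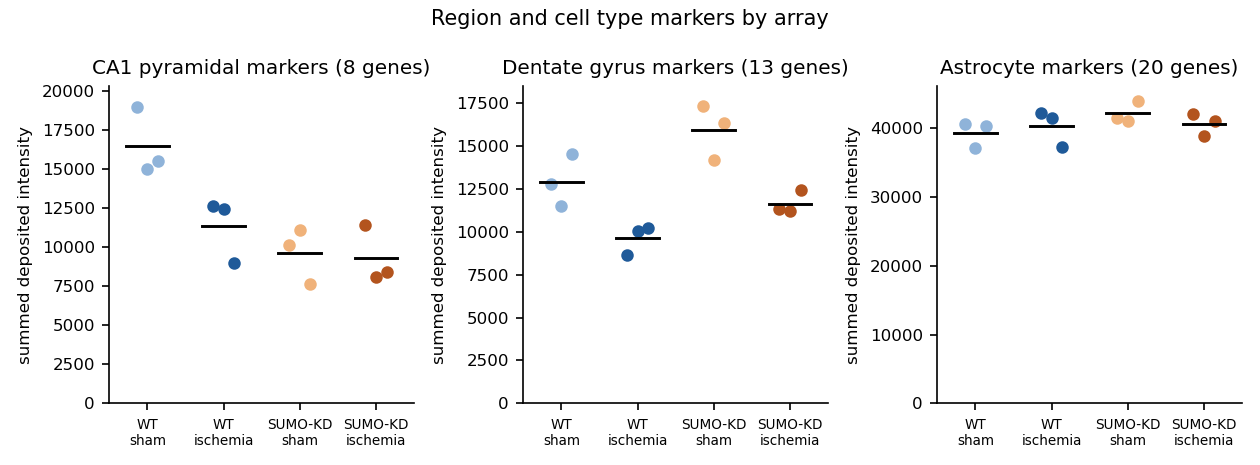
Summed deposited intensity of the CA1 pyramidal (8 genes), dentate gyrus (13) and astrocyte (20) markers in each array, by group; points are arrays and bars are group means of 3. CA1 markers were lower and dentate markers higher in SUMO-KD sham than in WT sham, and the astrocyte sums were higher in SUMO-KD sham than in WT sham and overlapped between genotypes after ischemia.

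Astrocyte markers had a median interaction of -0.17 over 20 members. It was negative at unadjusted p under 0.05 in 4 (3 to 6 over the omissions), beside 3.42% of all genes. Aqp4, the astrocyte water channel, measured 1320, 1326 and 1589 in WT sham and 1872, 1966 and 2295 in SUMO-KD sham, and the ischemia arrays overlapped at 1611 to 1812. Its interaction was -0.59 (SE 0.15, adjusted p = 0.43). Slc14a1, a urea transporter (-0.62), and Serpina3n, a reactive astrocyte marker (-1.21), were the next by p. The summed astrocyte markers ran from 37158 to 40582 in WT sham and from 41009 to 44017 in SUMO-KD sham, so that every SUMO-KD sham array lay above every WT sham array. After ischemia they overlapped, at 37310 to 42170 in WT and 38871 to 42038 in SUMO-KD. The difference of the mean log2 sums was 0.10 in sham and 0.01 after ischemia, and its part in the interactions of these genes was not tested.

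Choroid plexus and ependymal markers had a positive interaction in 15 of 15 members, beside 6475 of all 12394 genes. Their median was 0.48, with 1 positive at unadjusted p under 0.05, beside 2.78% of all genes. The 1 member was Ttr, the thyroxine carrier of choroid plexus. Their sum ran from 15668 to 24877 in WT ischemia and from 22274 to 29113 in SUMO-KD ischemia, and without WT ischemia replicate 1, the lowest array, the median was -0.21. Interneuron markers had a median of 0.21 over 14 members, with 3 positive at unadjusted p under 0.05, beside 2.78% of all genes. The 3 were Dlx1 (0.58), Sst and Pvalb (0.35). Thalamic markers had -0.17 over 15 members, from -0.39 to -0.03 over the omissions, and oligodendrocyte markers 0.20 over 15. Meningeal and fibroblast markers had a median of -0.18 over 17 members. Ogn, an extracellular matrix proteoglycan of meninges, measured 1092, 807 and 1240 in SUMO-KD sham and 388, 326 and 354 in SUMO-KD ischemia against 103 to 229 in all WT arrays, with an interaction of -1.33 (SE 0.31, adjusted p = 0.429). Microglia (-0.10), endothelial (-0.07) and CA3 and CA2 markers (-0.05) lay near the median of all genes. Blood and leukocyte markers had 0.14, and of their 17 members 9 had means below 32. When single arrays were left out, the median changed sign in 15 of the 38 lists.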

How the data were processed

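RNA of 12 CA1 samples was measured on Affymetrix arrays after Trizol extraction and amplification, per the labels' protocols. The authors deposited linear intensity values. Partek 6.6 and RMA are named in the submitters' processing notes, but the deposited values were not on RMA's log2 scale, and the mean of each array after trimming 2% at each end was 500.2 on all 12 arrays. Which step made them is not stated there, so it is unknown how background and scale were set. No batch or scan time was used.

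Of 22690 probe sets, 20393 had 1 gene symbol, 691 several and 1606, among them 64 controls, none in the platform annotation. The probe set of highest mean log2(intensity + 32) stood for each of 12394 genes. Entrez identifiers of 20364 probe sets were found in the RefSeq gene table of GRCm38.p6, and 0 symbols were updated.

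A model of 4 group means with 1 shared spread was fitted in limma 3.58.1 (R 4.3.3), and p-values are two-sided and Benjamini-Hochberg adjusted over all genes. Fold changes of dim genes are understated by the offset. The samples are labelled biological replicates, each a pool of 2 mice, with no litter or surgery day given, so p-values measure the spread between these samples. The number of arrays limits the precision. The fit was tested on simulated data.

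Genes named had a highest group mean of at least 100. They were those called, the 12 lowest and 12 highest interaction statistics, the 10 largest mean rises and 5 largest mean falls, Sumo3, and up to 3 members per list with the smallest interaction p. Acan was chosen after its values were seen. Members of the 38 lists and these rules were chosen with earlier results of these data known. Alternatives were other offsets, probe set rules, a filter on dim genes, normalizations, variance models, the replicate number as a block, and omission of each array. Promoter sequences are RefSeq's, and motifs were counted on both strands in the 250 bases before each start.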

Additional observations from a re-analysis of the deposited data

Results flagged for a closer look

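The ischemia response differed between the genotypes by limma's test of the interaction itself at 2 genes. Sox11 had an interaction of -2.04, with a rise of 1.62 in WT and a change of -0.42 in SUMO-KD. Neurod1 had an interaction of -1.39, with a rise of 0.48 in WT and a fall of 0.91 in SUMO-KD. Both had an adjusted p of 0.0219 by limma. In both, all 9 differences between ischemia and sham arrays were lower in SUMO-KD than all 9 in WT. That held for 171 of all 12394 genes (1.38%), and the reverse for 180 (1.45%). It rests on the arrays that gave the calls, so it is no further support for them. The part of tissue makeup in these values was not tested.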

How the results depend on the processing

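The count of 2 genes called for the interaction was 0 with no offset and a floor of 1 (adjusted p = 0.0951 for both genes). In a setting meant to average probe sets the count was also 0 (adjusted p = 0.0568 for both). There, sums over probe sets were divided by numbers of probe sets that for some genes were not their own. Its values are thus not means, and nothing about averaging is read from it. The count was 1, Neurod1, without shared probe sets, which leaves Sox11 out. It was also 1, Neurod1, with the replicate number as a block, where Sox11 had adjusted p = 0.0615. The other 8 settings called both, and omitting 1 array gave 0 to 5. Same-numbered arrays had correlations of their deviations from group means of -0.17 to 0.28, most of them positive. All pairs of replicates numbered 1 were positive, and differently numbered arrays ranged from -0.36 to 0.34. The numbers were not read as pairs, and whether they mark a shared batch was not tested. The block gave 861 genes at unadjusted p under 0.05 against 768. When every probe set stood by itself, that count was 1200 of 20393 probe sets tested, with 698 negative, against 768 of 12394 genes. The split of 424 negative to 344 positive was 402 to 400 with quantile normalization and 354 to 379 with median centring. The ratio of response sizes stayed below 1 in every setting and omission, from 0.77 to 0.91, with permutation p from 0.07 to 0.41. Signs turned for these interactions, none of them called. Egr2 was 0.18 with an offset of 16 and 0.61 with a floor of 1. Maff was -0.0032 with an offset of 64, -0.0202 after quantile normalization and -0.0057 with array weights. In the setting meant to average probe sets, Cacng5 was 0.0076, Casp9 -0.0051 and Tnfrsf12a 0.0098, sizes that cannot be taken as means. Without shared probe sets, Tnfrsf12a was 0.26, Ndufb6 0.14, Ptbp1 0.38 and Rwdd3 0.0064. Gad2 was -0.14 with array weights. Omitting 1 array gave -0.28 to 0.17 for Egr2, -0.16 to 0.21 for Maff, -0.0746 to 0.21 for Fzd2, -0.068 to 1.56 for Aqp1, -0.31 to 0.12 for Ier2, -0.0066 to 0.38 for Gad2, -0.0016 to 0.21 for Crebzf and -0.0706 to 1.03 for Ccn1. The cause of these changes was not tested. With 3 arrays a group, an interaction within 0.41 of 0 is not distinguishable from none at a typical gene, and genes below an intensity of 32 are flattened by the offset.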
